A study of Mus musculus with 24 samples.

Results

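The genes described here are the cyclins, the cyclin-dependent kinases and their inhibitors, the polo-like, Nek and checkpoint kinases, the E2F factors and the Cdc-numbered and anaphase promoting complex genes on a mouse cDNA array. They were chosen by the start of the gene symbol alone (Ccn with a family letter, Cdk, Cdc with a digit, Bub, Plk, Nek, Chek, E2f, Mad2 or Anapc), leaving out Cdkn1a and Ccng1. The rule reads names and no values, but it and the omission were set with earlier results of these data known. The rule found 58 genes with 65 probes among 8750 measured genes and unnamed probes (together called features), of which 5908 carried a symbol. A further 9 probes fitted the rule but carried several symbols and were left out.

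Lung and skin came from female mice, aged 12 to 13 weeks, of 3 inbred strains: C3H/HeMs, A/J and C57BL/6J. Lung was taken after a single gamma-ray dose of 10 Gy to the thorax and skin after 30 Gy to the hind leg, in each case at 1 h, 12 h and 72 h, and the controls of both tissues were not irradiated. Each of the 24 arrays held RNA pooled from 3 mice of 1 strain, with 1 array per strain, tissue and time, so the 3 arrays of a group were 3 strains. Dose, irradiated site and dye differed between lung and skin together and cannot be told apart from tissue. A level is given below as a log2 ratio to a reference mixed from RNA of 10 organs, which was hybridised on every array, and a difference is the irradiated pool minus the control pool of the same strain on that log2 scale. Values by strain are given in the order A/J, then C57BL/6J, then C3H/HeMs unless the strain is named.

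Cyclins are the regulatory partners of the Cdks. D-type cyclins with Cdk4 or Cdk6 act in G1, cyclin E at the entry into S phase, cyclin A through S phase and G2, and cyclin B with Cdk1 in mitosis. Cdc25 phosphatases remove inhibitory phosphates from Cdks, inhibitors of the Ink4 and Cip/Kip families hold them back, and checkpoint kinases relay DNA damage to both. Many mitotic genes are transcribed only in dividing cells and are repressed after DNA damage through the p53 and p21 pathway and the DREAM complex, which binds E2F sites and a cell cycle homology element in their promoters. CCAAT boxes, common in the same promoters, are bound by the activator NF-Y. In adult lung few cells divide, whereas skin holds dividing basal keratinocytes and hair follicle matrix cells.

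Of the members, 14 form a dividing-cell core whose transcripts are known to mark S phase, G2 or mitosis: Ccna2, Ccnb2, Ccnf, Ccne1, Cdk1, Cdc25a, Cdc25c, Plk1, Plk4, Bub1b, Mad2l1, Nek2, Cdc45 and Cdc7. The promoters of 4 of these are shown, those of the core genes with the smallest p-values in skin at 12 h that the RefSeq promoter table (build GRCm38.p6) held. Each runs 5′ to 3′ from 250 bases before to 50 bases after the gene's start. Capitals mark the cell cycle homology element (TTTGAA or TTCGAA), the CCAAT box (CCAAT) and E2F sites (TTTCCCGC, TTTCGCGC, TTTGGCGC or TTTGCCGC), searched on both strands, so that a box on the other strand reads ATTGG.
Bub1b (chr2:118597961-118598260, plus strand): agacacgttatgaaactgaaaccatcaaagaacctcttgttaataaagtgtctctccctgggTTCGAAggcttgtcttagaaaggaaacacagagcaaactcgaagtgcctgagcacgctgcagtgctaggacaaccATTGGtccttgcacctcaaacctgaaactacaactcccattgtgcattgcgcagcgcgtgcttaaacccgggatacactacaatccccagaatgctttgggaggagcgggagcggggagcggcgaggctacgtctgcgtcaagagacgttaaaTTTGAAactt
Cdk1 (chr10:69352863-69353162, minus strand): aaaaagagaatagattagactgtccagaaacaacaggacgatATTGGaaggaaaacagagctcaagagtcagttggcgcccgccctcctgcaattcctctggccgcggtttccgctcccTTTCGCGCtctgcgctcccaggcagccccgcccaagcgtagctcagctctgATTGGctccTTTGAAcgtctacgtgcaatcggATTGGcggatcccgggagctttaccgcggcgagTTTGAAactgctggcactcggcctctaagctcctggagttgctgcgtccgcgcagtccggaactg
Plk1 (chr7:122159185-122159484, plus strand): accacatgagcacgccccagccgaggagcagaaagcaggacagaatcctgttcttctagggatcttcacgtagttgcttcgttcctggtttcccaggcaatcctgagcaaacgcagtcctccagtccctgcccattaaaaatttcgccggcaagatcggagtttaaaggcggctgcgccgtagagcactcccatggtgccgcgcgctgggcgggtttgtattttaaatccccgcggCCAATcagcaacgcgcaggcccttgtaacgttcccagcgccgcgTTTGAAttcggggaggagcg
Nek2 (chr1:191821223-191821522, plus strand): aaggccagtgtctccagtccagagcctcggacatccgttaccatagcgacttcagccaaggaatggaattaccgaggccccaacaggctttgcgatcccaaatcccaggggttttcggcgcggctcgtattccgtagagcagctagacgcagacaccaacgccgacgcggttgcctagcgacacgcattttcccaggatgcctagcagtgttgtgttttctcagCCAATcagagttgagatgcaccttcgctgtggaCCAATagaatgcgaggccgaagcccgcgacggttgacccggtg

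The Cdk1 window held CCAAT boxes whose first base lay 208, 80 and 48 bases before the start, homology elements 71 and 15 bases before it and an E2F site 131 bases before it. In the Plk1 window a CCAAT box lay 14 bases before the start and a homology element reached from position 31 of the transcribed bases. The Bub1b window held a CCAAT box 113 bases before the start and homology elements 188 bases before it and at transcribed position 41. The Nek2 window held CCAAT boxes 26 bases before the start and at transcribed position 8, and no homology element with these letters. Promoters were matched for 49 of the 58 members, 12 of them in the core. A member gene was counted if any of its promoters held the letters, whereas the percentages over the table count single promoters. The shares of members are therefore not on the same footing as those percentages. A homology element was found for 7 of the 12 core genes, for 8 of the 37 other members and in 19.2% of all promoters. The table held 32851 promoters and excluded 1 chromosome. A CCAAT box was found in 8 of 12, 12 of 37 and 37.4%, an E2F site in 2 of 12, 2 of 37 and 2.27%, and a CCAAT box together with a homology element in 6 of 12, 3 of 37 and 7.53%. These letters are short and a match is a description of the sequence, not of a factor bound there.

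The labelled tissues carried their markers: 4 lung epithelium genes had a median level between 2.03 and 3.07 in control lung and between -4.23 and -3.76 in control skin, and 6 basal epidermis genes lay between 4.50 and 5.09 in control skin and between -0.13 and 0.10 in control lung. The 4 lung arrays of A/J and C3H/HeMs at 12 h and 72 h stood apart from the other 8, correlating with them at 0.80 to 0.89 over all features against 0.90 to 0.96 within the 8, and held 115 to 674 ratios of exactly 0 against 1 to 23. Only the C57BL/6J lung values at 12 h and 72 h lay outside that set, so those are the values free of it wherever lung differences are given by strain below. Member values touched by an exact 0 were those of Cdc37 and Anapc7 in A/J lung at 12 h and of Cdkn1c and Cdkn2b in C3H/HeMs lung at 72 h.

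In tissue without irradiation the core was low in lung and near the reference in skin. All 14 core genes lay below the reference in lung, with a median of -0.71, against 7 above and 7 below in skin, with a median of -0.01. Cdk1, the mitotic kinase, had a level of -1.93 ± 0.37 (SD over 3 pools) in lung and 0.18 ± 0.68 in skin. Plk1, which drives centrosome maturation and mitotic exit, stood at -1.64 ± 0.26 and -0.59 ± 0.71. Ccna2 was at -0.46 ± 0.21 in lung and 1.33 ± 0.32 in skin, and Ccnb2 at -0.67 ± 0.08 and 1.00 ± 0.38. Over all members, 24 of 58 lay above the reference in lung and 37 of 58 in skin, where 50.2% and 49.7% of all features did.

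Outside the core the members had no common level. Cdk5r1, the p35 activator of Cdk5 best known from neurons, had the lowest lung level of all members, -3.04 ± 0.22, against -0.89 ± 0.13 in skin. Cdkn2b, the Ink4 inhibitor p15, had the highest lung level, 1.33 ± 0.58, and Ccnl2, a cyclin of pre-mRNA splicing, the highest skin level, 2.10 ± 0.08. Cdk2ap2 was at 0.85 ± 0.20 in lung and -1.41 ± 0.84 in skin. The levels compare a tissue with the reference for 1 gene at a time and do not rank genes within a tissue.

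**Figure D1:**
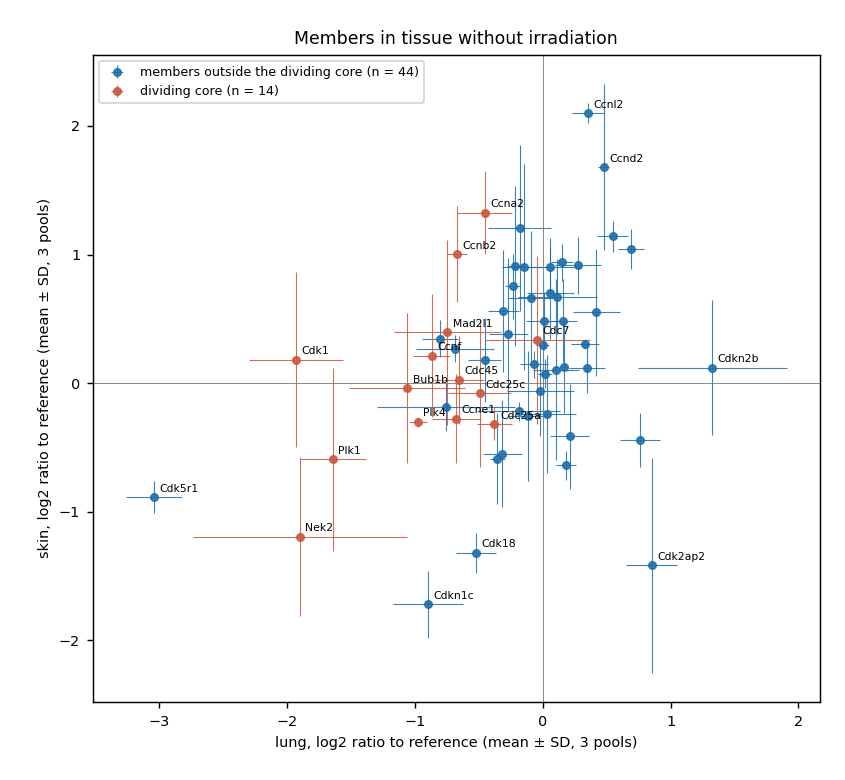
Mean level of each member in control lung (horizontal axis) and control skin (vertical axis) as log2 ratio to the reference, with bars of 1 SD over the 3 strain pools; the 14 core genes are brick red and the 44 others blue. All 14 core genes lie left of 0, from -0.04 for Cdc7 to -1.93 for Cdk1, and 7 of them lie above 0 in skin.

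No member passed the test in any comparison with control (limma with strain as a block, Benjamini-Hochberg adjusted p under 0.05 over all 8750 features). Cdkn1a and Ccng1, left out by name, did pass in lung, Cdkn1a at each time and Ccng1 at 12 h and 72 h. The lung counts of 0 thus hold for the list without them. In lung 0 of 58 members were called at 1 h, where 0.0114% of all features were, 0 of 58 at 12 h, where 0.114% were, and 0 of 58 at 72 h, where 0.114% were. In skin 0 of 58 were called at 1 h, 12 h and 72 h, and 0% of all features at each time. The lowest adjusted p of a member was 0.313 in lung, for Ccnf at 72 h, and 0.386 in skin, for Bub1b at 12 h. All differences below are therefore given as values, and none is a called change.

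Counts at an unadjusted p under 0.05 were as follows. In lung 1 member lay higher and 0 lower at 1 h, against 1.27% and 0.971% of all features, 4 higher and 2 lower at 12 h, against 6.98% and 5.07%, and 7 higher and 1 lower at 72 h, against 6.72% and 5.68%. The lung counts at 12 h and 72 h include the A/J and C3H/HeMs arrays that stood apart, and their part in these counts was not tested. In skin 1 lay higher and 0 lower at 1 h, against 1.87% and 2.49%, 0 higher and 7 lower at 12 h, against 2.99% and 3.71%, and 0 higher and 5 lower at 72 h, against 3.95% and 3.44%. The 7 members on the lower side in skin at 12 h were Bub1b, Cdk1, Plk1, Ccna2, Ccni, Nek2 and Cdkn2aip, 5 of them core genes.

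Direction was also counted strain by strain. In lung 3 members lay above control in all 3 strains and 9 below at 1 h, against 14.6% and 14.9% of all features, 9 above and 5 below at 12 h, against 16.8% and 10.7%, and 16 above and 3 below at 72 h, against 18.4% and 13.6%. In skin 4 lay above and 10 below at 1 h, against 11.0% and 18.2%, 2 above and 12 below at 12 h, against 10.3% and 15.7%, and 5 above and 15 below at 72 h, against 14.7% and 15.4%. Few members lay far from control in every strain. At least 1.5-fold in all 3 strains were 0 members higher and 0 lower in lung at 1 h, against 0.160% and 0.0686%, 0 and 0 at 12 h, against 0.389% and 0.491%, and 1 and 1 at 72 h (Cdk5r1 and Ccnf), against 0.366% and 1.29%. The same counts in skin were 0 and 0 at 1 h, against 0.469% and 0.354%, 0 and 1 at 12 h (Bub1b), against 0.960% and 0.457%, and 0 and 0 at 72 h, against 0.971% and 0.526%.

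**Figure D2:**
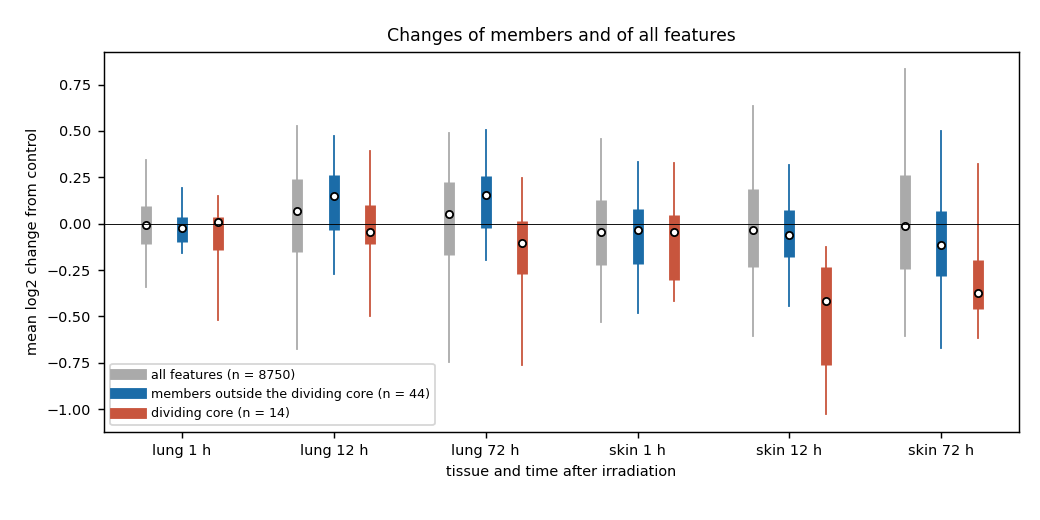
Mean log2 difference from control over the 3 strains at each tissue and time for all 8750 features (grey), the 44 members outside the core (blue) and the 14 core genes (brick red); dots are medians, thick bars run from the 25 to the 75 percentile and thin bars from the 5 to the 95 percentile of the genes. The core median lies at -0.42 in skin at 12 h and -0.37 at 72 h, against -0.03 and -0.01 for all features.

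The median difference over all 58 members was -0.02, 0.10 and 0.10 in lung at 1 h, 12 h and 72 h, beside -0.01, 0.07 and 0.05 for all features. In skin it was -0.03, -0.13 and -0.18, beside -0.05, -0.03 and -0.01. In skin the core had a median of -0.42 at 12 h and -0.37 at 72 h, and the 44 other members had one of -0.06 and -0.11. In lung the core lay at -0.05 and -0.10 at those times and the other members at 0.15 and 0.15. In C57BL/6J lung, free of the arrays that stood apart, the member median was -0.05 at 12 h and -0.01 at 72 h.

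**Figure D3:**
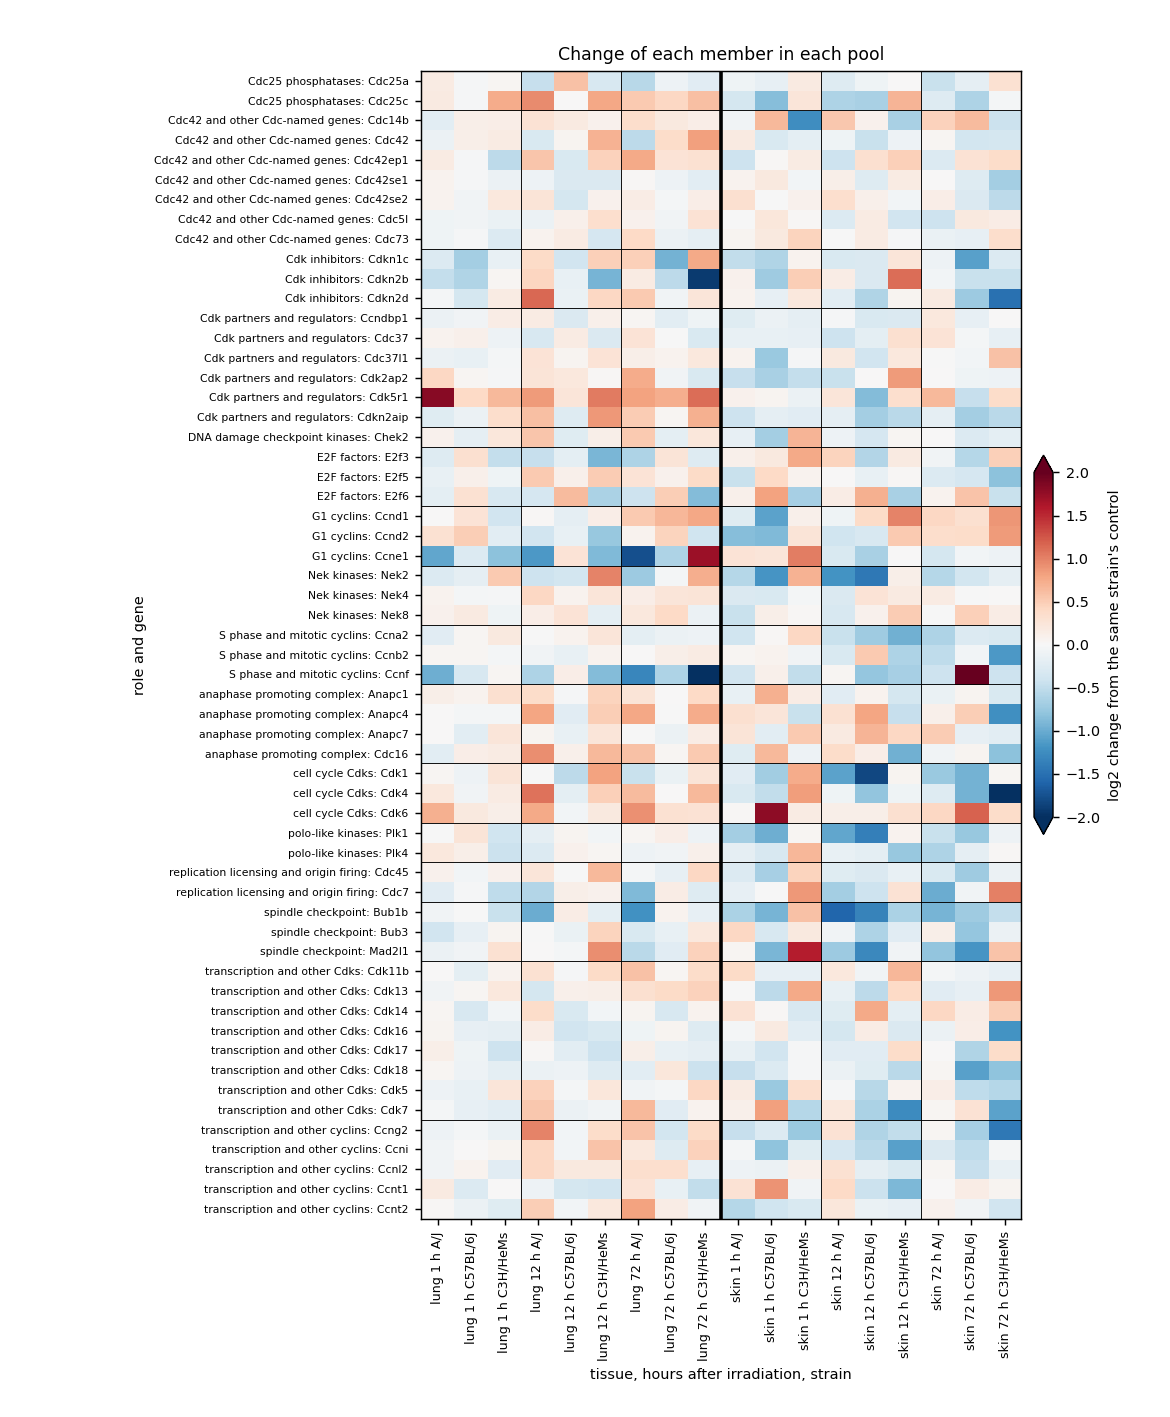
Log2 difference of every member (rows, grouped by role) from the same strain's control in each of the 18 irradiated pools (columns, lung left and skin right of the thick line); red is higher, blue is lower and the colour scale ends at 2 in either direction. In skin at 12 h and 72 h the rows of Cdk1, Plk1, Bub1b, Nek2 and Mad2l1 are blue in A/J and C57BL/6J, and in C3H/HeMs they are paler or of the other colour.

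The core genes lay low in skin at 12 h. All 14 had a mean below control, 5 lay below it in all 3 strains, where 15.7% of all features did, and 5 lay lower at an unadjusted p under 0.05, where 3.71% did. The share of all features with a mean below control was not counted here or at 72 h. Their median was -0.03 at 12 h and -0.01 at 72 h. The core list was set with earlier results of these data known, so its shared direction is a description only. The median level of the core in the 3 control pools was 0.18 for A/J and 0.33 for C57BL/6J, while C3H/HeMs was lower at -0.39. At 12 h it was -0.32, -0.50 and -0.46. The 3 pools thus lay close together at 12 h, and the C3H/HeMs control pool was already near that level. The core difference at 12 h was -0.54 for A/J, -0.68 for C57BL/6J and, for C3H/HeMs, -0.03. The C3H/HeMs core level was 0.14 at 1 h, above its control, while A/J was at -0.04 and C57BL/6J at -0.25, below theirs. At 72 h the levels were -0.28, -0.28 and -0.37, 13 of 14 core genes had a mean below control, and 8 lay below in all 3 strains, against 15.4% of all features. Because these are bulk tissues, fewer dividing cells and less RNA per cell cannot be told apart.

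Markers of other skin cells also lay away from control at these times. The median of 4 hair follicle genes lay between 1.48 and 2.43 in control skin, between 0.25 and 1.60 at 1 h, between 0.97 and 2.12 at 12 h and between 0.08 and 1.30 at 72 h; 0, 1 and 0 of the 4 had a mean above control at these times. The median of 7 skeletal muscle genes lay between -0.77 and 2.70 in control skin and between -1.13 and 0.50 at 12 h, with differences at 12 h of 1.08, -0.21 and -3.89, the last from C3H/HeMs. The 3 differentiated epidermis genes had a median difference of 1.14 at 72 h, where all 3 had a mean above control, and the 6 basal epidermis genes one of 0.35. The share of all features with a mean above control was not counted, and the part of these markers in the member values was not tested.

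Among the spindle checkpoint genes, Bub1b (BubR1, a kinase of the mitotic checkpoint complex) had skin levels of 0.27, 0.33 and -0.71 in controls and of -1.31, -1.01 and -1.35 at 12 h. The lowest control pool, that of C3H/HeMs, was above the highest irradiated pool, so the groups did not overlap. The mean difference was -1.19 ± 0.29 (SE), 2.28-fold lower, with a limma adjusted p of 0.386. At 72 h its levels were -0.67, -0.39 and -1.18, a mean difference of -0.71 ± 0.29 (adjusted p 0.664), with the C57BL/6J and A/J pools inside the range of the controls. Mad2l1, which binds Cdc20 until chromosomes are attached, had differences at 12 h of -0.73, -1.29 and -0.06 and a mean of -0.70 ± 0.38. At 1 h its C3H/HeMs pool lay 1.57 above control and its C57BL/6J pool 0.92 below it (-0.92). Bub3, the third measured gene of this group, had a mean of -0.30 ± 0.21 at 12 h. In lung the A/J pool of Bub1b differed by -0.99 at 12 h and -1.22 at 72 h, while C57BL/6J was at 0.16 and 0.06.

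Cdk1 in skin stood at 0.39, 0.73 and -0.57 in the control pools and at -0.67, -1.09 and -0.51 at 12 h. The first 2 strains were lower and C3H/HeMs was within 0.06 of its control, and the groups overlapped only through that strain. The mean difference was -0.94 ± 0.31 (SE), 1.92-fold lower, with an adjusted p of 0.612, and at 72 h it was -0.55 ± 0.31. Plk1 followed the same order, with control levels of -0.37, -0.02 and -1.39, levels at 12 h of -1.41, -1.38 and -1.32, and a mean difference of -0.78 ± 0.26 (adjusted p 0.612). Plk4, the kinase of centriole duplication, had differences of -0.15, -0.19 and -0.76 at 12 h, with C3H/HeMs the lowest. Nek2, a centrosome kinase, differed by -1.2 and -1.44 in A/J and C57BL/6J and by 0.12 in C3H/HeMs, a mean of -0.84 ± 0.36. In lung none of Cdk1, Plk1, Plk4 and Nek2 had a mean beyond 0.11 in either direction at any time. Some of these means averaged strains of opposite sign. Cdk1 in lung at 12 h differed by -0.02, -0.52 and 0.81. Nek2 in lung stood at -1.19, -1.70 and -2.82 in controls and at -1.60, -2.06 and -1.82 at 12 h.

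The S phase and mitotic cyclins were not alike in skin. Ccna2, cyclin A2, had levels of 1.70, 1.17 and 1.12 in controls and 1.24, 0.46 and 0.16 at 12 h, with differences of -0.45, -0.71 and -0.96 and a mean of -0.70 ± 0.24 (adjusted p 0.622). Here C3H/HeMs had the lowest value, in contrast to Cdk1 and Plk1. Ccnb2, cyclin B2, differed by -0.30, 0.53 and -0.62 at 12 h and by -0.50, -0.06 and -1.15 at 72 h, a mean at 72 h of -0.57 ± 0.26. Ccnf, an F-box cyclin of the SCF ubiquitin ligase, had 1 skin pool far from the rest: C57BL/6J at 72 h stood at 3.40 against -0.31 in its control, and the 11 other skin pools lay between -1.09 and 0.66.

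**Figure D4:**
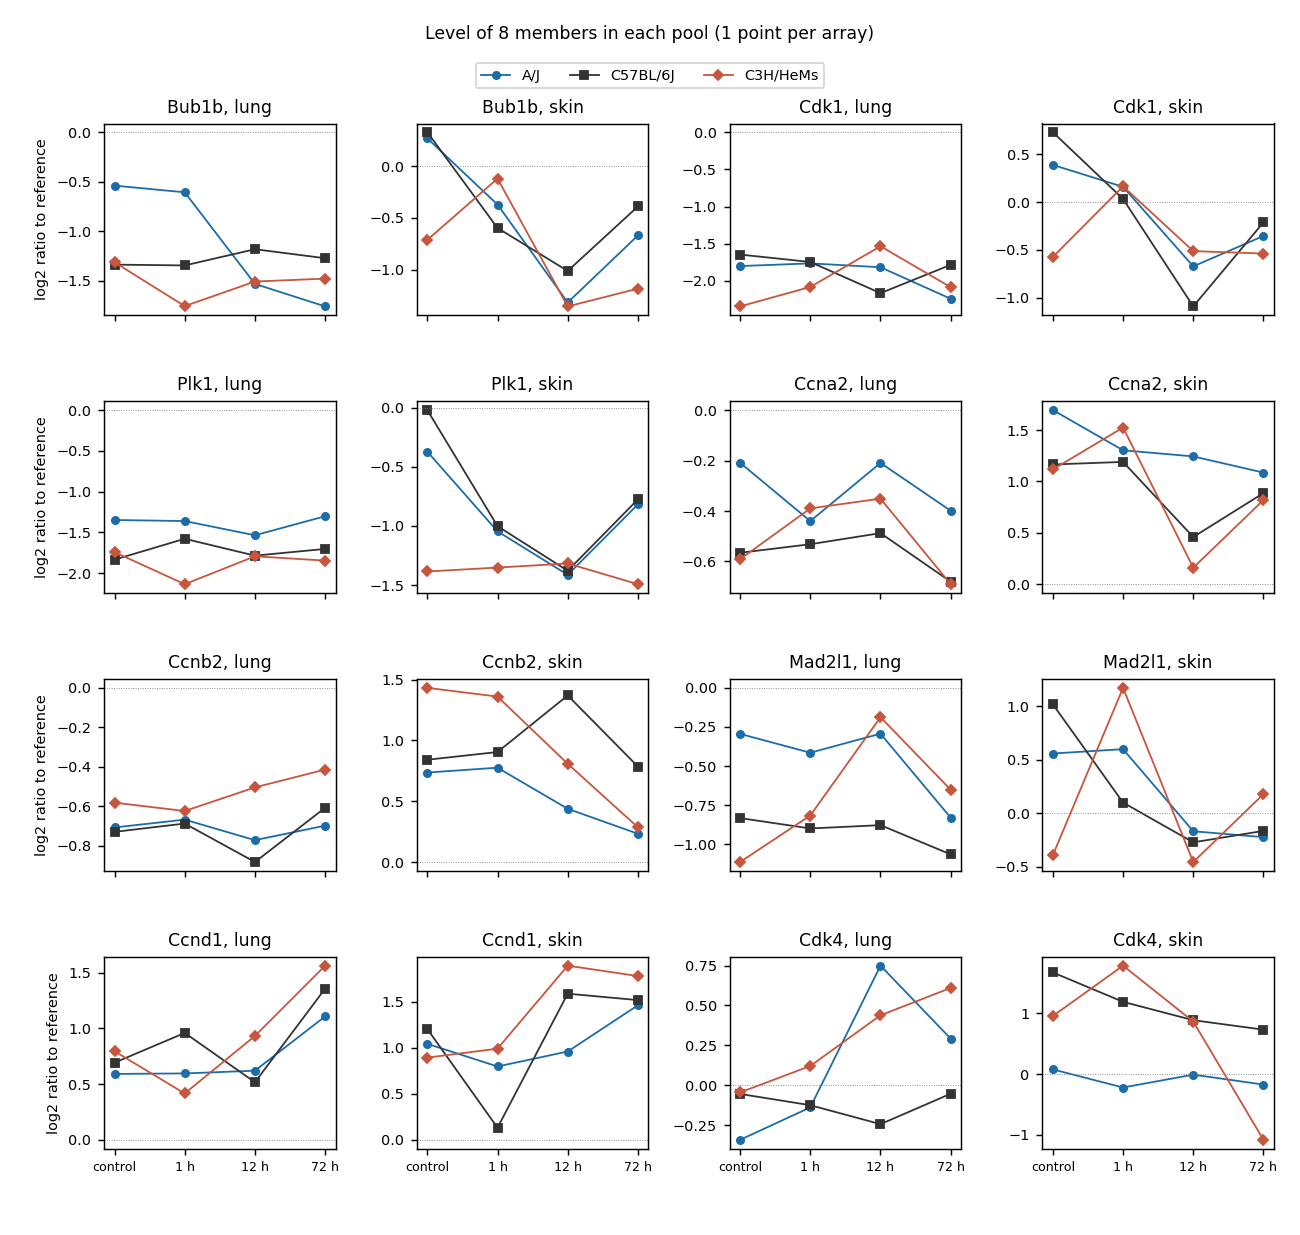
Level of 8 members as log2 ratio to the reference in control tissue and at 1 h, 12 h and 72 h, with lung and skin in separate panels, 1 point per array and 1 line per strain (A/J blue circles, C57BL/6J black squares, C3H/HeMs red diamonds); vertical scales differ between panels. Bub1b in skin runs from 0.27, 0.33 and -0.71 in controls to -1.31, -1.01 and -1.35 at 12 h, and Ccnd1 lies above its control range at 72 h in both tissues.

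Of the G1 cyclins, 3 were measured. Ccnd1, cyclin D1, stood in lung at 0.59, 0.69 and 0.79 in the controls and at 1.11, 1.36 and 1.56 at 72 h. All 3 irradiated pools lay above all 3 controls, and the C57BL/6J pool, outside the arrays that stood apart, was 0.66 above its control. The mean difference was 0.65 ± 0.18 (SE), 1.57-fold higher, with an adjusted p of 0.337. In skin Ccnd1 was at 1.04, 1.20 and 0.89 in controls and at 1.46, 1.52 and 1.78 at 72 h, again without overlap, with a mean of 0.54 ± 0.28 (adjusted p 0.669). Ccnd2, cyclin D2, in lung differed by -0.39, -0.15 and -0.76 at 12 h, a mean of -0.43 ± 0.16 (adjusted p 0.377), and by 0.07, 0.44 and -0.40 at 72 h. In skin Ccnd2 was at 1.5, 2.40 and 1.14 in controls and 1.85, 2.76 and 2.00 at 72 h, a mean difference of 0.52 ± 0.25 with overlapping groups.

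Ccne1, cyclin E1, was below control in all 3 lung strains at 1 h, by -1.04, -0.27 and -0.82, without overlap, yet its SE was 0.65 around a mean of -0.71. At 72 h the level of its C3H/HeMs lung pool was 1.09 while that of A/J was -2.27. In skin Ccne1 lay 0.27, 0.25 and 1.02 above control at 1 h and had the only unadjusted p under 0.05 on the higher side among members there, with a mean of 0.51 ± 0.23 (adjusted p 1.00). It was the only core gene above control in all 3 skin strains at 1 h.

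The G1 kinases gave no common direction. Cdk4 in skin at 72 h differed by -0.25, -0.94 and -2.04, a mean of -1.08 ± 0.46 (SE), 2.11-fold lower, with an adjusted p of 0.664. Its control levels were 0.08, 1.67 and 0.96, and the C3H/HeMs pool at -1.08 was the lowest of the 12 skin arrays. In lung Cdk4 lay 1.09 above control in A/J at 12 h, -0.19 from it in C57BL/6J and 0.48 above in C3H/HeMs. Cdk6, with 2 probes, was above control in all 3 lung strains at 72 h, by 0.91, 0.31 and 0.28, a mean of 0.50 ± 0.17 (adjusted p 0.354), without overlap. Its probes gave 0.23 and 0.77 there. In skin at 72 h Cdk6 differed by 0.42, 1.17 and 0.36, with a mean of 0.65 ± 0.35.

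The Cdk inhibitors and the damage checkpoint kinase had differences of either sign. Chek2, which the ATM kinase activates at double-strand breaks, had means between 0.05 and 0.19 in lung and between -0.15 and -0.05 in skin, with SEs of 0.17 and 0.27. These means averaged strains of opposite sign. Its lung differences at 1 h, 12 h and 72 h were -0.18, -0.24 and -0.19 in C57BL/6J. They were 0.08, 0.55 and 0.53 in A/J and 0.23, 0.12 and 0.23 in C3H/HeMs. In skin at 1 h Chek2 differed by -0.16, -0.67 and 0.69. Cdkn2d, the Ink4 inhibitor p19, had a mean of 0.48 ± 0.22 in lung at 12 h, of which A/J gave 1.15 and C57BL/6J -0.14. Cdkn2b in lung at 72 h had differences of 0.16, -0.52 and -1.91, the last from an exact 0. Cdkn1c, the Cip/Kip inhibitor p57, differed in skin at 72 h by -0.10, -1.09 and -0.27, a mean of -0.49 ± 0.25, and in lung at 1 h by -0.27, -0.69 and -0.14, a mean of -0.37 ± 0.28. For scale, Cdkn1a (p21), which the choice of genes left out, lay 2.23 ± 0.20, 2.71 ± 0.20 and 2.54 ± 0.20 above control in lung (adjusted p 0.0133, 0.00158 and 0.00346) and 0.82, 1.51 and 0.92 above it in skin (0.168 at the lowest). Ccng1 was 2.35 ± 0.20 above control in lung at 12 h (adjusted p 0.00160) and 2.02 ± 0.31 in skin (0.144).

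Both measured Cdc25 phosphatases belong to the core. Cdc25c, which activates Cdk1 at mitotic entry, had lung levels of -0.37, -0.33 and -0.78 in controls and of 0.15, 0.08 and -0.18 at 72 h, all above the controls. Its mean difference was 0.51 ± 0.21 at 72 h (adjusted p 0.381), with C57BL/6J at 0.42, and 0.57 ± 0.21 at 12 h (adjusted p 0.366), with C57BL/6J at 0.01. In skin Cdc25c lay below control in all 3 strains at 72 h, by -0.26, -0.62 and -0.04. Cdc25a, the phosphatase of G1 and S phase, differed in lung at 72 h by -0.56, -0.10 and -0.23, a mean of -0.29 ± 0.22, which turned to 0.17 with the lung arrays that stood apart as a block. The replication genes Cdc45, a subunit of the replicative helicase, and Cdc7, a kinase of origin firing, had means of -0.22 ± 0.23 and -0.27 ± 0.31 in skin at 12 h, and at 72 h Cdc7 ran from -1.0 in A/J to 1.01 in C3H/HeMs.

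In lung the member with the largest higher values was Cdk5r1. Its control levels were -3.24, -2.81 and -3.07, and its levels were -1.43, -2.41 and -2.43 at 1 h, -2.39, -2.57 and -2.04 at 12 h and -2.44, -2.08 and -1.96 at 72 h. Each irradiated pool lay above every control pool, and each remained far below the reference. The mean differences were 0.95 ± 0.29, 0.71 ± 0.29 and 0.88 ± 0.29 (SE), 1.94-, 1.64- and 1.84-fold higher, with adjusted p of 1.00, 0.392 and 0.354. In C57BL/6J alone they were 0.40, 0.24 and 0.73. In skin its means were 0.01, -0.09 and 0.18.

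Ccnf had the largest lower value in lung. It stood at -1.0, -0.89 and -0.71 in controls and at -2.30, -1.51 and -2.86 at 72 h, without overlap. The mean difference was -1.35 ± 0.35 (SE), 2.56-fold lower, with an adjusted p of 0.313 and with C57BL/6J at -0.62. Its lung means at 1 h and 12 h were -0.42 and -0.45, with C3H/HeMs at 0.04 and C57BL/6J at 0.13.

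Lung leukocyte markers also lay lower: the median of 7 B cell genes was between -0.50 and -0.03 in control lung and between -1.34 and -0.86 at 12 h, with all 7 means below control, and the median difference of 10 T and NK cell genes at 12 h was -0.58, with 9 of 10 means below. The share of all features with a mean below control was not counted, and their median was 0.07. These 12 h values include the A/J and C3H/HeMs arrays that stood apart. The part of the leukocyte markers in the lung values of Ccnd2, Ccnf and the other members was not tested.

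The E2F factors, which switch the S phase genes, had 3 measured members. E2f3 in lung at 12 h differed by -0.46, -0.19 and -0.91, a mean of -0.52 ± 0.20 (adjusted p 0.378), with overlapping groups. E2f5 lay above control in lung at 12 h by 0.52, 0.10 and 0.51, a mean of 0.38 ± 0.15 (adjusted p 0.386), and below it in skin at 72 h by -0.27, -0.34 and -0.81, a mean of -0.47 ± 0.25, in both cases without overlap. E2f3 in skin at 1 h lay above control by 0.11, 0.19 and 0.75. E2f6 ran in opposite directions by strain in lung, with successive differences of 0.30, 0.63 and 0.49 in C57BL/6J against -0.32, -0.63 and -0.87 in C3H/HeMs, and likewise in skin, with 0.81, 0.72 and 0.57 against -0.66, -0.65 and -0.45.

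The anaphase promoting complex, the ubiquitin ligase that ends mitosis, had 4 measured subunits. All 4 had means above control in lung at 12 h and 72 h, where the medians of all features were 0.07 and 0.05. The share of all features with a mean above control was not counted. In C57BL/6J lung at 12 h, Anapc1, Anapc4 and Anapc7 lay below control. Their levels there were -0.17, 0.09 and 0.30 in the control and -0.19, -0.14 and 0.15 at 12 h. Cdc16 differed at 12 h by 0.92, 0.09 and 0.65, a mean of 0.56 ± 0.21 (adjusted p 0.375), and Anapc4 at 72 h by 0.78, -0.01 and 0.74, a mean of 0.51 ± 0.21 (adjusted p 0.392). The C57BL/6J values of both were near 0, while those of the arrays that stood apart were not. Anapc1 had a lung mean of 0.17 ± 0.13 at 1 h and 0.26 ± 0.13 at 12 h, and Anapc7 one of 0.05 ± 0.12 at 12 h. In skin Anapc7 differed at 12 h by 0.19, 0.68 and 0.41, a mean of 0.43 ± 0.27, of which its 2 probes gave 1.04 and -0.18.

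The cyclins outside the division cycle and the Cdks of transcription come next. In skin at 12 h Ccni, an atypical cyclin, differed by -0.33, -0.54 and -1.09, a mean of -0.65 ± 0.25 (adjusted p 0.679), without overlap, and at 1 h by -0.03, -0.80 and -0.25. Ccng2, a cyclin G of growth arrest, had means of -0.49 ± 0.29 at 1 h and -0.68 ± 0.29 at 72 h in skin and of 0.44 ± 0.24 in lung at 12 h, where C57BL/6J gave -0.06. Ccnt2, a subunit of the elongation factor P-TEFb, differed in skin at 1 h by -0.57, -0.39 and -0.30, and Ccnt1, its paralogue, in lung at 12 h by -0.10, -0.35 and -0.39, a mean of -0.28 ± 0.17; in skin at 72 h Ccnt1 was at 0.07 ± 0.30. Ccnl2 lay above control in lung at 12 h by 0.41, 0.19 and 0.20. The 8 transcription and other Cdks had lung means between -0.20 and 0.38, the highest being Cdk13 at 72 h with 0.38 ± 0.13 (adjusted p 0.354) and C57BL/6J at 0.38. Cdk7, the kinase of TFIIH, differed in lung at 1 h by -0.14 ± 0.18, Cdk18 at 12 h by -0.16 ± 0.15 (0.07 with the lung arrays that stood apart as a block), and Cdk14 in skin at 72 h by 0.35 ± 0.28. The lowest skin value of this group was -0.62 ± 0.28, for Cdk18 at 72 h (adjusted p 0.664).

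Partners and other Cdc-named genes closed the list. Cdkn2aip, a partner of the Arf tumour suppressor, lay below control in every skin strain at each time, with means of -0.27 ± 0.21, -0.47 ± 0.21 and -0.47 ± 0.21, and above it in lung at 72 h by 0.51, 0.04 and 0.71. Cdk2ap2 differed in skin at 1 h by -0.46, -0.65 and -0.48, a mean of -0.53 ± 0.27, with overlapping groups. Cdc42ep1, an effector of the GTPase Cdc42, was above control in lung at 72 h by 0.76, 0.27 and 0.31, and Cdc42se1 below it at 12 h with a mean of -0.22 ± 0.11. Cdc73, a subunit of the PAF1 complex, was at 0.23 ± 0.20 in skin at 1 h. Of the 7 genes with 2 probes, Cdc42 had probes whose lung levels lay 2.34 apart on average, so its average describes neither transcript alone.

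Later against earlier times gave 0 of 58 members called in lung at 12 h against 1 h, where 0.0686% of features were, and at 72 h against 12 h, where 0% were. In skin 0 of 58 were called at 12 h against 1 h, where 0.0114% were, and at 72 h against 12 h, where 0% were. At an unadjusted p under 0.05, 6 members differed in lung at 12 h against 1 h (16.5% of features) and 4 at 72 h against 12 h (5.82%), and in skin 8 (6.49%) and 1 (7.12%). The smallest p in the first comparison was that of Ccnd2, at -0.63 ± 0.16 (adjusted p 0.171), followed by E2f5 at 0.42 ± 0.15 and Cdc37l1 at 0.30 ± 0.11. This comparison includes the A/J and C3H/HeMs arrays at 12 h that stood apart, and their part in these values was not tested. In C57BL/6J, outside that set, the levels at 1 h and 12 h were 1.01 and 0.38 for Ccnd2. They were 0.12 and 0.12 for E2f5 and 0.002 and 0.20 for Cdc37l1. From 12 h to 72 h in lung Ccnd1 differed by 0.65 ± 0.18 (adjusted p 0.633), Cdk13 by 0.43 ± 0.13 and Ccnd2 by 0.47 ± 0.16. Between 1 h and 12 h in skin Ccne1 differed by -0.83 ± 0.23 (adjusted p 0.668), Bub1b by -0.86 ± 0.29, and Ccnd1 by 0.84 ± 0.28, in the other direction. From 12 h to 72 h in skin Ccnd2 differed by 0.59 ± 0.25, Cdkn2b by -0.64 ± 0.31 and Cdc42se2 by -0.36 ± 0.19.

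The skin difference minus the lung difference was tested in 1 fit over the 24 arrays. At 1 h, 12 h and 72 h 0 of 58 members were called, and 0% of all features at each time. At an unadjusted p under 0.05 there were 2 members at 1 h, against 2.01% of features, 7 at 12 h, against 8.42%, and 7 at 72 h, against 12.8%. All 7 at 12 h were lower in skin, 5 of them core genes, and the smallest p belonged to Ccni at -0.96 ± 0.31, Ccna2 at -0.81 ± 0.26 and Cdkn2aip at -0.87 ± 0.29 (adjusted p 0.531). The lowest difference at 12 h was that of Cdk1, -1.03 ± 0.40. The smallest p at 1 h belonged to Ccnd2 at -0.68 ± 0.29, Cdk5r1 at -0.95 ± 0.43 and Cdk2ap2 at -0.68 ± 0.34. Those at 72 h were Cdkn2aip at -0.89 ± 0.29, Cdk4 at -1.51 ± 0.54 and E2f5 at -0.72 ± 0.29 (adjusted p 0.367).

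Between strains, over the 4 times of a tissue, 0 of 58 members passed limma's F test in lung, where 2.95% of features did, and 0 of 58 in skin, where 0.377% did. At an unadjusted p under 0.05 there were 8 in lung, against 23.7%, and 10 in skin, against 19.1%. E2f6 in lung had means of -0.10, 0.63 and -0.33, highest in C57BL/6J (adjusted p 0.0723), followed by Ccnd2 at 0.43, 0.72 and 0.12 (0.0930) and Plk1 at -1.39, -1.73 and -1.88 (0.113). These means include the irradiated pools. The E2f6 control pools lay closer together in lung, at 0.14, 0.27 and 0.13. In skin Cdk11b, a kinase of splicing, was at -0.53, 0.63 and 0.35 (0.0670), Cdk2ap2 at -0.95, -1.36 and -2.28 (0.0789) and Ccnd2 at 1.28, 2.19 and 1.55 (0.126). A/J was the lowest strain for Cdk11b, and C3H/HeMs for Cdk2ap2.

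The cell cycle genes outside these families were counted the same way in skin. Of 61 listed, 36 were measured; at 12 h 0 were called, 17 lay lower and 0 higher at an unadjusted p under 0.05, against 3.71% and 2.99% of all features, and 23 lay below control in all 3 strains, against 15.7%, with a median of -0.60. Mki67, the proliferation antigen, differed by -1.16, -2.15 and -1.16, and Cenpf, a kinetochore protein, by -1.34, -2.27 and -0.72. C3H/HeMs was also low for these 2 genes. They were named after their values were seen and do not stand for the 36. At 72 h the median was -0.52, and 15 lay lower and 1 higher, against 3.44% and 3.95%. In lung the list's medians were -0.09, -0.13 and -0.17 at the 3 times. Of 11 measured p53 targets, 1, 3 and 3 were called higher in lung at the 3 times. Of all features, 0.0114%, 0.114% and 0.114% were called there in either direction. The 1 called at 1 h was Cdkn1a, already given above, which is also among the 3 at 12 h and 72 h. In skin 0 targets were called at each time, against 0% of all features, and their medians were 0.64, 1.17 and 0.91. The retinoblastoma family had 1 measured gene, with a mean of -0.37 in skin at 12 h.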

How the data were processed

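RNA of 24 pools, each from 3 female mice, was hybridised on 2-colour cDNA arrays against 1 common reference, with lung in Cy3 and skin in Cy5, per the labels. The authors deposited log10 ratios of Cy5 over Cy3 made with Agilent Feature Extraction, per the submitters' processing notes. Not given in the sources used here are its version, background and dye steps, and the values end at a log10 limit of 2. The files hold ratios only, so spot brightness is unknown and precision rests on how many arrays there are.

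The sign of the lung ratios was turned to read sample over reference, after which lung and skin arrays correlated at 0.12 to 0.52 (-0.52 to -0.12 as deposited). Ratios were multiplied by 3.32, centred on the array median and averaged per symbol. Symbols came from the platform annotation of the probes (6433 with 1 symbol, 381 with several, 2461 with none).

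Each tissue was fitted with limma 3.58.1 in R 4.3.3 over 12 arrays, with 4 groups and strain as a block (6 residual degrees of freedom), and both tissues together for skin minus lung (12). Benjamini-Hochberg adjusted p under 0.05 was a call; strains were compared by the F test. The strain, which the replicate number stands for, pairs the arrays: the same-strain deviations correlated at -0.05 to 0.71 in lung and -0.05 to 0.68 in skin, against -0.53 to 0.18 and -0.48 to 0.20 between strains. With strain and group both fitted, level differences between strains are taken out. The p-values of the comparisons rest on what is left, that is, how unevenly the groups differed from strain to strain. The fits were also run on simulated data with independent noise and made changes. Those data held no strain effects and no arrays that stood apart, so they do not test how the fits handle either.

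The members, the omission of Cdkn1a and Ccng1 and all gene lists were chosen with earlier results of these data known. The genes named were, per comparison with control, up to 5 with the largest means in either direction among those of 1 direction in all 3 strains, elsewhere the 3 with the smallest p, and a list of main cell cycle regulators. Others named beside them were chosen after their values were seen. Alternatives were the fit without the strain block, quantile or no centring, probes kept apart, limit and exact 0 values removed, robust variances, only the groups compared, the lung arrays that stood apart as a block, other fold limits, and strains or arrays left out in turn.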

Additional observations from a re-analysis of the deposited data

Results flagged for a closer look

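For 7 values every lung strain lay on one side of its control and every skin strain on the other. The share of all features with this pattern was not counted, so the 7 cannot be set against a background. The test of the difference is limma's in the joint fit. At 1 h the skin minus lung difference was 1.22 for Ccne1 and 0.37 for Cdc73 (adjusted p 1.00 for both). At 72 h it was -0.67 for Ccnb2, -0.81 for Cdc25c, -1.51 for Cdk4, -0.89 for Cdkn2aip and -0.72 for E2f5, with adjusted p from 0.367 to 0.377. None passed the threshold. The Cdk4 value rests most on the C3H/HeMs skin pool, which lay 2.04 below its control (-2.04).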

How the results depend on the processing

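The count of members called against control, between times and between tissues was 0 under every alternative run, including the fit with no replicate block. In the F test between strains, leaving out 1 array or strain gave 0 to 1 in lung and 0 to 2 in skin: E2f6 in lung without the C57BL/6J control (adjusted p 0.0371), Cdk11b in skin without C3H/HeMs (0.0435), Cdk2ap2 without the A/J array at 12 h (0.0413), and Cdk2ap2 and Cdk11b without the C3H/HeMs array at 12 h (0.0141 and 0.0169).

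Medians moved as follows. Quantile normalization gave -0.0058 for all members and 0.052 for the core in lung at 1 h; the core there ranged from -0.035 to 0.0072 with 1 array or strain left out. With the lung arrays that stood apart as a block, the lung median at 72 h was -0.036, and C57BL/6J alone, chosen after seeing the data, gave -0.049 at 12 h and -0.010 at 72 h. The cause was not tested.

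Members past 1.5-fold in all 3 strains became 1 in lung at 72 h and 2 in skin at 12 h under quantile normalization, 0 at both under a 2-fold limit, and 12, 14 and 19 in lung and 14, 14 and 20 in skin at any size. With 1 strain or array left out they ranged over 0 to 2, 0 to 6 and 2 to 4 in lung and 0 to 3, 1 to 6 and 0 to 4 in skin, where fewer strains have to agree; the highest counts came without C57BL/6J in lung and, in skin, without C3H/HeMs at 1 h and 12 h and without A/J at 72 h. Of 494 repeats of the 52 named differences, 0 passed the threshold and 9 moved by over 1 SD over the strains. Of these, 2 reversed, both with the lung arrays that stood apart as a block: Cdk18 at 12 h to 0.07 and Cdc25a at 72 h to 0.17. The repeats did not include single arrays left out or fits of only the groups compared.

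With 6 residual degrees of freedom and 1 pool per strain, a difference in 1 strain alone has no replicate.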
